A study of Mus musculus with 10 samples.

Results

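Hippocampi injected with full-length neurofilament light chain (FL-NfL) were compared with hippocampi injected with its coiled-coil part (CC-NfL) by single-cell RNA sequencing. The comparison took every library labelled with either treatment, 3 FL-NfL and 3 CC-NfL of 10 libraries in all. The remaining 4 libraries, from vehicle-injected mice, served as the reference level. All groups were male wild-type C57BL/6 mice, 11 weeks old, injected into both hippocampi and examined at day 3. Each protein was given at 1 mg/ml. A part of a protein weighs less than the whole, so equal mass per volume does not mean equal numbers of molecules. No group received an unrelated protein. For the injected volume and the source of the proteins, the labels say nothing. Mice were perfused with PBS, both hippocampi were dissociated with actinomycin D, a transcription blocker, and live cells were sorted by dye. The design text counts as many injected mice as libraries in each group, but does not tie each library to 1 mouse, so p-values measure the spread between libraries. Replicates 1 and 2 of each protein belong to batch b1 and replicate 3 to batch b2, and the labels do not say what a batch was. The question was whether whole protein and coiled-coil part differ in 2 readouts, the share of macrophages among cells and the state of microglia, and in the balance between them.

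Neurofilament light chain is an intermediate filament protein of the axon that is released when neurons are damaged. Its central rod forms the coiled coil through which filament subunits pair, between a head and a tail domain. Microglia are the resident macrophages of brain tissue. In undisturbed tissue they are called homeostatic, and after injury they take on activated states or divide. Macrophages found with them in a hippocampal preparation can be resident cells of the meninges, vessels and choroid plexus, or cells derived from blood monocytes. MHC class II molecules, after which several macrophage states are named, present antigen to helper T cells.

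The 6 libraries held 43189 annotated cells of 68914 in the series, with 18699 after FL-NfL and 24490 after CC-NfL. They included 2543 macrophages and 13171 microglia. Annotated cells numbered 3150 to 11329 per FL-NfL library and 4324 to 14141 per CC-NfL library, with the largest library of each protein in b2. The deposited table gives the authors' class and state of each cell and no gene values, so cell names could not be checked against marker genes. Of 42991 distinct cell barcodes in the 6 libraries, 197 (0.458%) occurred in more than 1 library. FL-NfL library 1 had the highest share of barcodes without annotation, at 71.3%, against 17.3% to 53.0% in the other 5, and with all barcodes as denominator the macrophage estimate below fell from 1.02 to 0.77. Libraries numbered 1 held 13.5% to 20.5% cells of the NPC class, against 2.52% to 5.88% in the other 4 NfL libraries. Results without them are also given for many, but not all, of the values that move.

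Macrophages formed a larger share of annotated cells after FL-NfL in each same-numbered pair of libraries, by a margin that depended on the pair. They made up 9.55%, 5.49% and 7.04% of annotated cells in FL-NfL libraries 1 to 3 and 1.94%, 4.38% and 5.81% in CC-NfL libraries 1 to 3. The groups overlapped, because CC-NfL library 3 lay above FL-NfL library 2, but in b1 both FL-NfL libraries lay above both CC-NfL libraries. With so few libraries this was not particular to macrophages. Of the 16 classes, BMEC, ependymal and other immune cells were also apart in b1, neurons were apart in the other direction, and no others were. With 2 libraries of each protein, groups are often apart by chance. The excess in macrophage share was 7.61 percentage points in pair 1, 1.11 in pair 2 and 1.22 in pair 3. Pairs are libraries of the same number, and the labels do not say that a number marks a pair. By count, macrophages were fewer after FL-NfL in pairs 2 and 3, 173 against 264 and 797 against 822. On average FL-NfL libraries held 7.36% ± 2.05 macrophages and CC-NfL libraries 4.05% ± 1.96 (SD, n = 3 each), which is 1.82 times the share. The effect was expressed as a log2 odds ratio, the log2 of macrophages over other cells after FL-NfL minus the same after CC-NfL, fitted in limma with batch as a term over all 10 libraries. It was 1.02 (SE 0.49, 95% interval -0.11 to 2.14) and did not pass the test across 16 classes (adjusted p = 0.378). The exact permutation p was 0.200 over all splits and 0.167 within batch, where 0.1 and 0.167 are the smallest possible values. Pair 1 carried much of this difference. The log2 odds ratio was 0.53 without CC-NfL library 1 and 0.32 without the 3 libraries numbered 1.

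The share of microglia showed no detectable difference, and non-homeostatic microglia were on average fewer after FL-NfL, without passing the test. Microglia made up 32.4%, 38.3% and 24.9% of cells in the FL-NfL libraries and 32.9%, 36.8% and 29.3% in the CC-NfL libraries, with a log2 odds ratio of -0.09 (SE 0.39, adjusted p = 0.918, interval -0.98 to 0.80). Non-homeostatic microglia, meaning those in any activated or proliferating state, made up 45.0%, 43.9% and 28.0% of microglia after FL-NfL. After CC-NfL they made up 44.5%, 57.2% and 44.2%. By replicate number, pair 1 was level and FL-NfL was lower in pairs 2 and 3, a pattern that depends on how the b1 libraries are matched. The difference in log2 odds was -0.59 (SE 0.65, adjusted p = 0.598 over 8 balance measures, exact permutation p = 0.400). The difference was -0.16 without FL-NfL library 3, -0.34 without CC-NfL library 2 and -0.90 without the 3 libraries numbered 1. The vehicle libraries ranged from 13.1% to 31.5%.

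Matched by replicate number, the readouts pointed in opposite directions in pairs 2 and 3. Shares of macrophages were higher and of non-homeostatic microglia lower after FL-NfL than after CC-NfL. In pair 1 macrophages differed by 7.61 percentage points and non-homeostatic microglia by 0.47. The level pair depends on the numbering. With the b1 libraries matched the other way, non-homeostatic microglia were lower after FL-NfL in each match, 45.0% against 57.2% and 43.9% against 44.5%. In the plane of both readouts, FL-NfL libraries 1 and 2 and CC-NfL libraries 1 and 3 all lay at 43.9% to 45.0% non-homeostatic microglia. Macrophages in these 4 libraries ranged from 1.94% to 9.55% of cells, with CC-NfL library 1 lowest, FL-NfL library 1 highest and CC-NfL library 3 slightly above FL-NfL library 2.

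**Figure D1:**
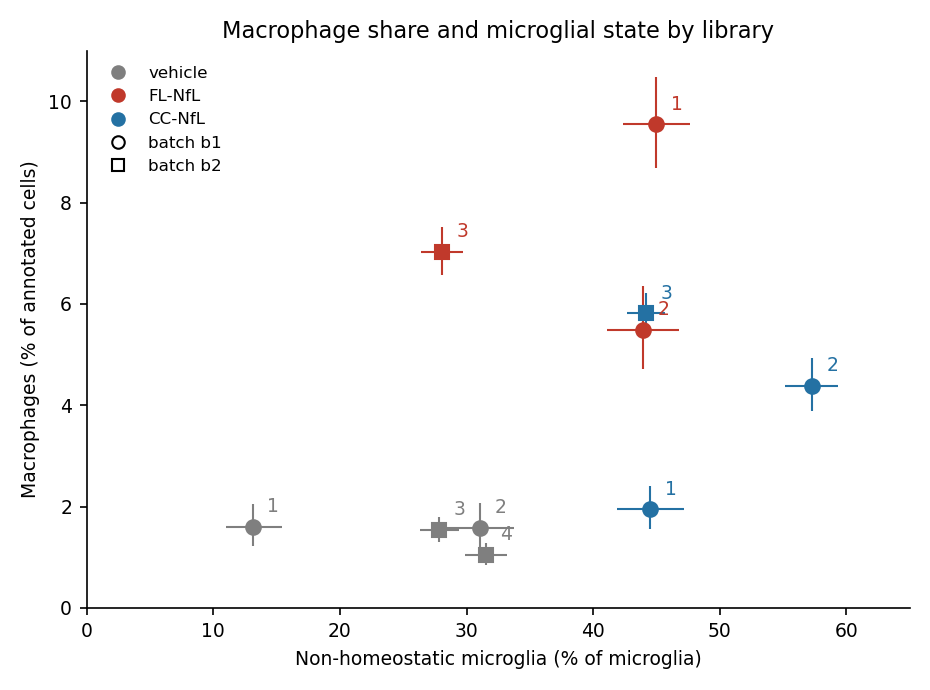
Each point is 1 library, with non-homeostatic microglia as a percentage of microglia on the horizontal axis and macrophages as a percentage of annotated cells on the vertical axis. Numbers are replicates, circles batch b1, squares batch b2, and bars are exact 95% intervals that cover counting error alone. The vehicle libraries sit at 1.05% to 1.60% macrophages, and FL-NfL libraries 1 and 2 share the horizontal range of 43.9% to 45.0% with CC-NfL libraries 1 and 3.

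The balance of the readouts was measured as the log2 odds of macrophages among cells minus the log2 odds of non-homeostatic states among microglia. A higher value means a larger share of macrophages, a smaller share of non-homeostatic microglia, or both. It was -2.95, -3.75 and -2.36 in the FL-NfL libraries and -5.33, -4.87 and -3.68 in the CC-NfL libraries. FL-NfL was higher in 3 of 3 pairs, by 2.38, 1.12 and 1.32, and in b1, with 2 libraries of each protein, the groups did not overlap. Of the 8 measures, they were also apart in b1 for macrophages per microglia, macrophages per Activated_2 microglia and activated macrophages per activated microglia, and for no others. These measures all rise with the macrophage count, so they are not separate results. With 2 libraries of each protein, groups are often apart by chance. Over both batches, the balance of FL-NfL library 2 lay just below that of CC-NfL library 3. The fitted difference was 1.60 (SE 0.70, 95% interval 0.15 to 3.06), which did not pass over the 8 balance measures (adjusted p = 0.257, unadjusted p = 0.0321). The measures share cells, so limma's spread pooled over them does not come from independent values. A least-squares fit of this measure alone gave an interval of -0.21 to 3.42 with all 10 libraries and 0.55 to 2.65 with the 6 NfL libraries. The exact permutation p was 0.200, and 0.167 within batch, the smallest possible there. With 6 libraries in limma, 4 of the 8 measures passed, this one with an adjusted p of 0.00752. There limma gave these 4 the same SE of 0.43. Fitted alone by least squares, macrophages per microglia (-0.65 to 2.71) and activated macrophages per activated microglia (-0.67 to 3.18) had intervals that include 0. That of macrophages per microglia of the Activated_2 state was 0.01 to 2.73. The balance also passed without CC-NfL library 3 (2.15, adjusted p = 0.0404). That fit has no CC-NfL library in b2, so its batch term comes from vehicle and FL-NfL libraries alone. Its 2.15 lies above the difference within either batch, 1.75 in b1 and 1.32 in b2. Without the 3 libraries numbered 1 the difference was 1.22 (adjusted p = 0.366).

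Ratios of cell numbers, which do not depend on how many other cells were recovered, showed the same order within each pair. Macrophages per 100 microglia were 29.5, 14.3 and 28.2 after FL-NfL and 5.90, 11.9 and 19.9 after CC-NfL. Vehicle libraries held 3.09 to 6.60, so CC-NfL library 1 lay within the vehicle range and the other 5 NfL libraries above it. The log2 ratio differed by 1.03 (SE 0.64, interval -0.31 to 2.37, adjusted p = 0.264), by 0.58 without CC-NfL library 1 and by 0.39 without the 3 libraries numbered 1.

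Per 100 non-homeostatic microglia, macrophages numbered 65.5, 32.6 and 101 after FL-NfL and 13.2, 20.8 and 45.0 after CC-NfL. The group means were 66.3 ± 34.1 and 26.4 ± 16.6 (SD, n = 3), beside 22.5 ± 18.8 for 4 vehicle libraries. All 3 CC-NfL libraries and FL-NfL library 2 lay within the vehicle range of 9.81 to 50.4. Per 100 microglia of the Activated_2 state, the most frequent of the 3 activated states, macrophages numbered 134, 63.6 and 176 after FL-NfL and 26.2, 37.5 and 88.2 after CC-NfL (log2 difference 1.37, SE 0.73, adjusted p = 0.264). This log2 difference was 0.88 without the 3 libraries numbered 1. FL-NfL was higher in 3 of 3 pairs for 4 of the 8 measures (50%) and lower in 3 of 3 for none (0.0%). None of the 8 passed in limma (0.0%), and 1 (12.5%) had an unadjusted p under 0.05.

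**Figure D2:**
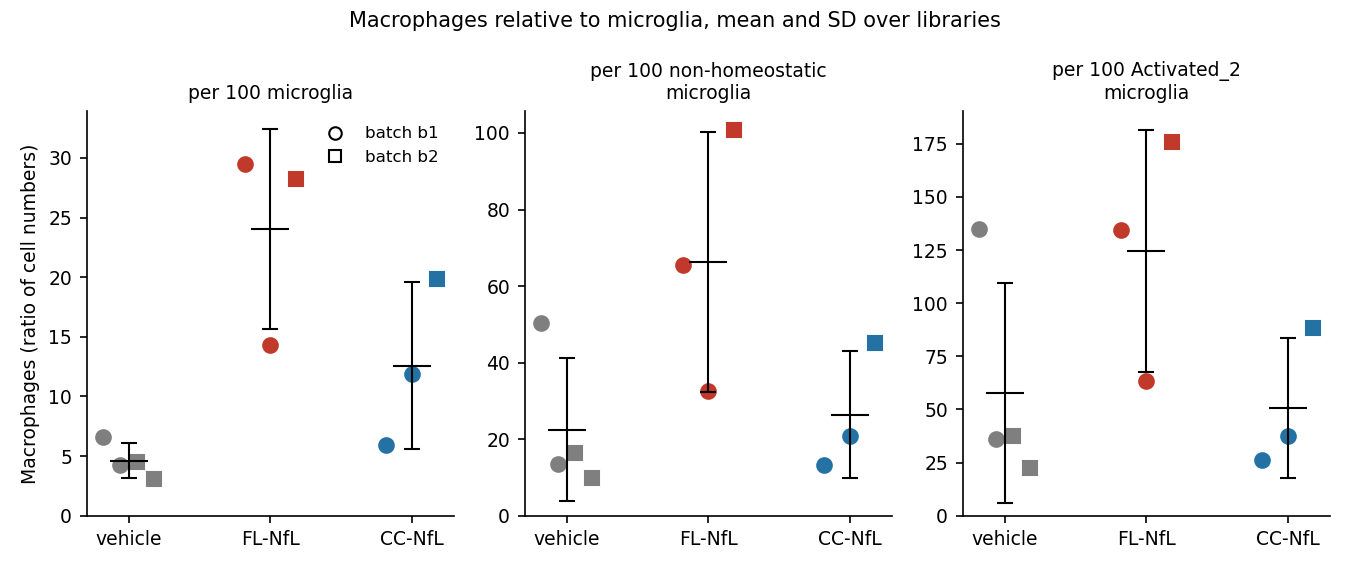
Macrophages per 100 microglia, per 100 non-homeostatic microglia and per 100 Activated_2 microglia are plotted by group, with 1 point per library, circles for batch b1 and squares for batch b2, and black lines for the mean and SD. FL-NfL libraries range from 32.6 to 101 and CC-NfL libraries from 13.2 to 45.0 per 100 non-homeostatic microglia, and vehicle library 1 stands at 50.4 above the other vehicle libraries.

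The total of activated myeloid cells, activated macrophages and activated microglia together, did not separate the proteins. It was 18.8%, 17.1% and 11.4% of cells after FL-NfL and 13.8%, 20.1% and 15.5% after CC-NfL, with a log2 odds difference of -0.09 (SE 0.66, interval -1.46 to 1.28, adjusted p = 0.988). Its make-up differed in the same direction in each pair, with a higher part of macrophages after FL-NfL. Macrophages formed 31.9%, 12.8% and 43.5% of these cells after FL-NfL and 7.37%, 10.2% and 30.0% after CC-NfL. The log2 ratio of activated macrophages to activated microglia differed by 1.25 (SE 0.80, interval -0.41 to 2.92, adjusted p = 0.264), and by 2.11 without CC-NfL library 3 (adjusted p = 0.0404). The latter fit has no CC-NfL library in b2, and 2.11 lies above the differences of 1.46 in b1 and 0.85 in b2. The difference was 1.92 without FL-NfL library 2, 0.79 without CC-NfL library 1, 0.68 without FL-NfL library 3 and 0.61 without the 3 libraries numbered 1. The b2 library of each protein was the highest of its group on this ratio, at 77.0 and 42.8 activated macrophages per 100 activated microglia. Vehicle libraries went the other way, with 3.76 and 5.10 in b1 and 0.921 and 1.93 in b2.

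The activated share of macrophages showed no detectable difference between the proteins. The 3 activated states made up 63.6%, 39.9% and 70.9% of macrophages after FL-NfL and 52.4%, 47.0% and 80.1% after CC-NfL, against 7.61% to 23.1% in vehicle libraries. The log2 odds differed by -0.16 (SE 0.72, interval -1.66 to 1.34, adjusted p = 0.988). The b2 library was the highest in each protein group here too, and FL-NfL library 2 and CC-NfL library 2 the lowest.

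Among macrophages, 0 of 6 states tested differed (0.0%), and at p under 0.05 before adjustment there were also 0. A quasi-binomial model of the counts called 1 of 6 (16.7%), Activated_3. Activated_3 made up 28.6%, 20.2% and 23.6% of macrophages after FL-NfL and 22.6%, 19.7% and 16.6% after CC-NfL. It was higher after FL-NfL in 3 of 3 pairs, as 1 of 6 states was (16.7%) (log2 odds ratio 0.37, SE 0.35, adjusted p = 0.782), and the quasi-binomial model gave 0.57 with an adjusted p of 0.0392. The limma estimate was 0.18 without FL-NfL library 3 and 0.62 without FL-NfL library 2. Activated_1 (15.8%, 12.1% and 24.8% against 11.9%, 16.3% and 36.8%) and Activated_2 (19.1%, 7.51% and 22.4% against 17.9%, 11.0% and 26.7%) were highest in the b2 library of each protein, with estimates of -0.29 (SE 1.00) and -0.27 (SE 0.95).

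The states named for MHC class II were mixed. MHC2_low and MHC2_high_1 together held most macrophages of each vehicle library. MHC2_low macrophages made up 9.80%, 16.2% and 8.83% after FL-NfL and 21.4%, 17.8% and 5.62% after CC-NfL, higher after CC-NfL in pairs 1 and 2 and lower in pair 3 (-0.27, SE 0.45). MHC2_high_1 made up 13.1%, 28.9% and 4.41% against 16.7%, 10.2% and 3.79% (0.54, SE 1.02, and 1.02 without the 3 libraries numbered 1), with FL-NfL library 2 apart from the others. MHC2_high_2 made up 10.6%, 12.1% and 13.9% against 7.14%, 17.0% and 9.65% (0.19, SE 0.57). The states named Granulocytes and Proliferating were too rare to test, at 0.578% to 2.02% and 0.00% to 2.31% of macrophages after FL-NfL and 0.366% to 3.41% and 0.00% to 4.55% after CC-NfL. Granulocytes are not macrophages, and without them the balance difference was 1.62.

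As shares of all cells, every one of the 8 macrophage states had a higher mean after FL-NfL. Over macrophages with a state, which leaves out 12 cells, the excess was 3.27 percentage points, made up of 1.07 points of Activated_3 (32.6% of the excess), 0.71 of MHC2_high_1 (21.8%), 0.47 of Activated_2 (14.4%) and 0.40 of MHC2_high_2 (12.1%). MHC2_low added 0.30 points (9.27%), Activated_1 0.27 (8.41%), and the 2 rare states the rest. In pairs 1, 2 and 3, Activated_1 differed by 1.26, -0.05 and -0.39 points and Activated_2 by 1.45, -0.07 and 0.02. The mean excess of these 2 states therefore rested on pair 1. Activated_3 macrophages made up 2.70%, 1.11% and 1.65% of cells after FL-NfL and 0.439%, 0.863% and 0.962% after CC-NfL, and these groups did not overlap. Its log2 odds ratio was 1.26 (SE 0.55, interval 0.01 to 2.52, adjusted p = 0.310, unadjusted p = 0.0491), with 0.84 without CC-NfL library 1 and 0.58 without the 3 libraries numbered 1.

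Macrophages outside the activated states also had a higher share after FL-NfL in each pair, a sum that was not tested. Together they made up 3.44%, 3.30% and 2.04% of cells after FL-NfL and 0.925%, 2.32% and 1.15% after CC-NfL, where the vehicle libraries held 0.966% to 1.47%. The groups overlapped, because FL-NfL library 3 lay below CC-NfL library 2. MHC2_low macrophages made up 0.924%, 0.889% and 0.618% of cells against 0.416%, 0.780% and 0.325%, higher after FL-NfL in 3 of 3 pairs (0.75, SE 0.36, adjusted p = 0.310). MHC2_high_1 was higher in 3 of 3 pairs as well (1.41, SE 0.72, adjusted p = 0.310), and with Activated_3 these were 3 of 11 states (27.3%). Activated_1 (0.76, SE 1.08), Activated_2 (0.73, SE 1.10) and MHC2_high_2 (1.14, SE 0.70) were not. Without the 3 libraries numbered 1 the estimates for Activated_1 and Activated_2 turned to -0.19 and -0.09, and that for MHC2_high_2 was 0.33. MHC2_high_2 was at 0.42 without CC-NfL library 1, and MHC2_high_1 at 2.16 without FL-NfL library 3. Of 11 microglial and macrophage states tested as shares of cells, 0 passed in limma (0.0%), 1 had an unadjusted p under 0.05 (9.09%), 0 passed in the quasi-binomial model (0.0%), and 1 had groups that did not overlap (9.09%).

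**Figure D3:**
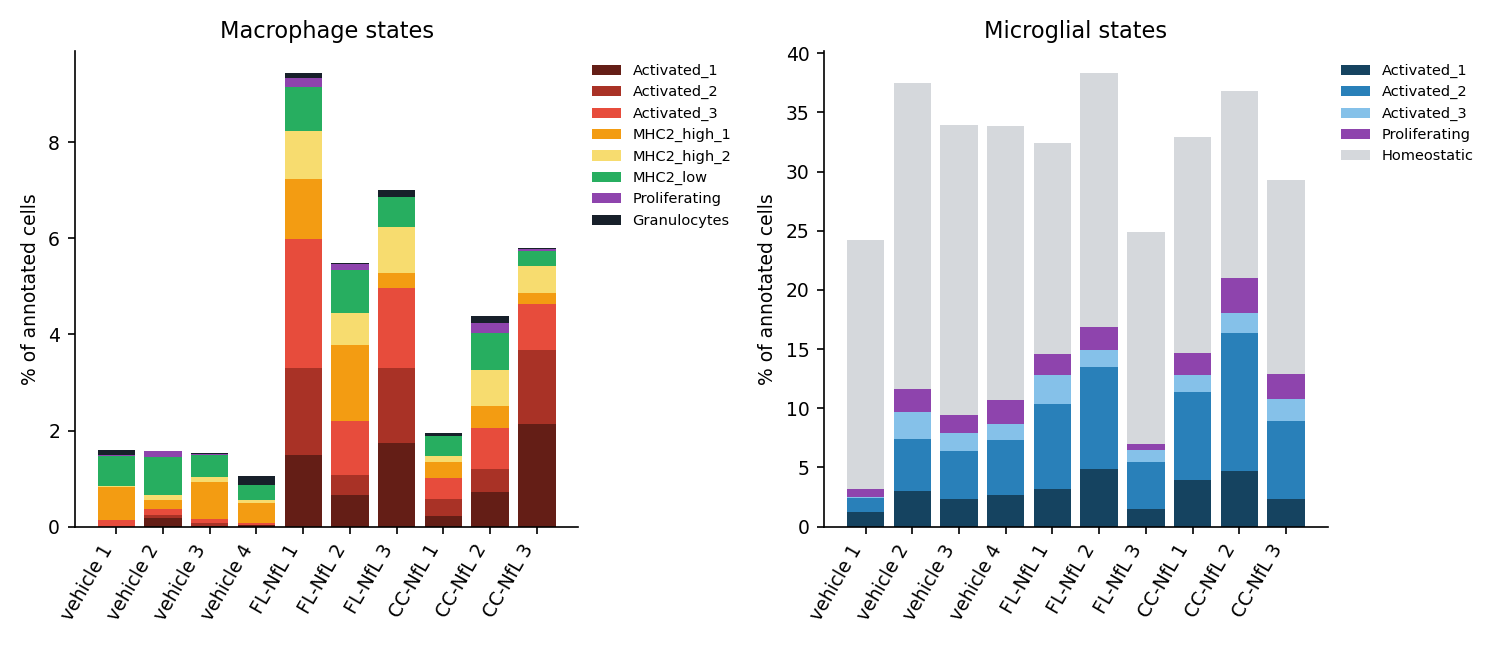
Stacked bars give macrophage states (left) and microglial states (right) as percentages of annotated cells in each of 10 libraries, with the colour of each state in the legend. The macrophage bar is tallest in FL-NfL library 1, where Activated_3 alone is 2.70% of cells, and Activated_3 is 0.439% of cells in CC-NfL library 1.

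**Figure D4:**
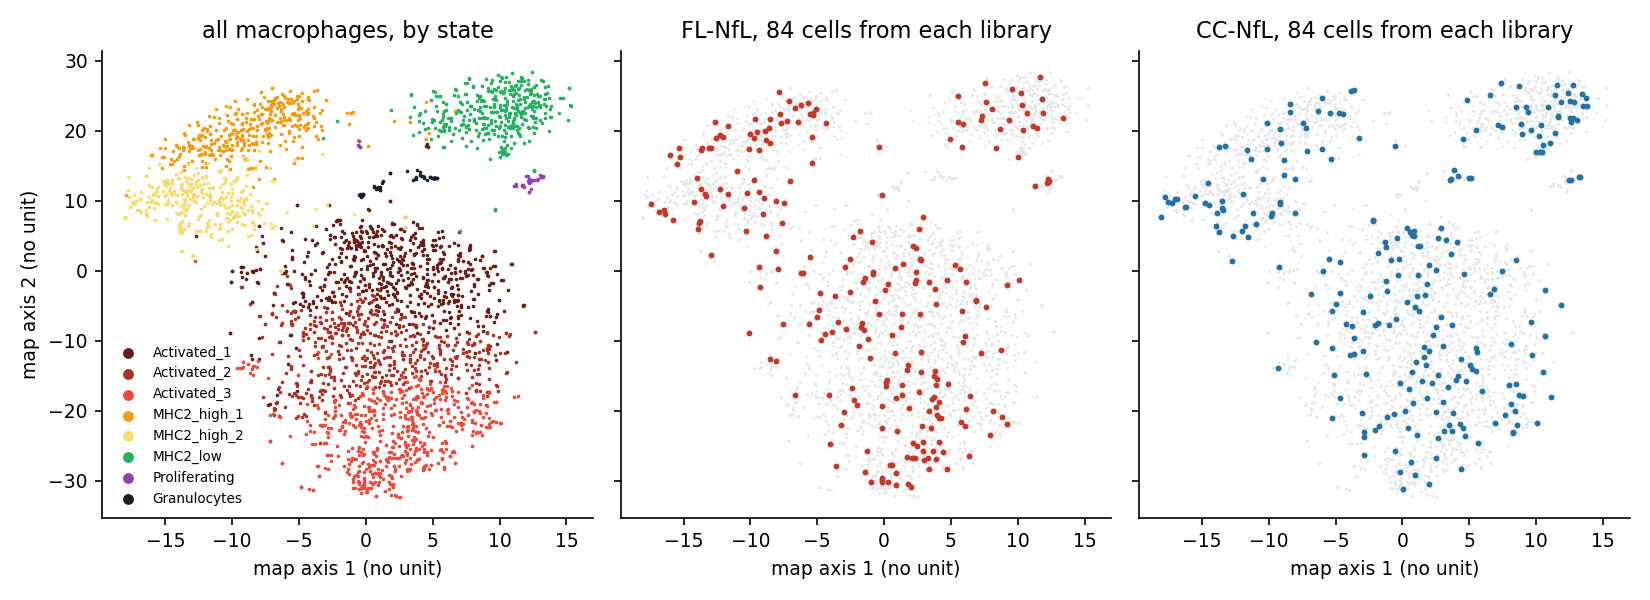
The authors' t-SNE map of macrophages, whose axes have no unit, is coloured by state (left) and by group, with 84 macrophages drawn at random from each FL-NfL library (middle) and each CC-NfL library (right) over all macrophages in grey. Cells of both proteins spread over the same areas, those of the activated states, MHC2_high and MHC2_low.

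None of the microglial states passed the test, and Activated_1, Activated_2 and Proliferating were lower after FL-NfL in every same-numbered pair. For Activated_1 and Activated_2 this depends on the numbering, because FL-NfL library 2 lay above CC-NfL library 1 in both states. Activated_2 made up 21.9%, 22.6% and 16.1% of microglia after FL-NfL and 22.5%, 31.8% and 22.5% after CC-NfL, with a gap of 0.60 points in pair 1 (-0.44, SE 0.55, adjusted p = 0.707, and -0.13 without FL-NfL library 3 or -0.18 without CC-NfL library 2). Activated_1 made up 9.95%, 12.7% and 5.85% against 12%, 12.7% and 8.10%, nearly level in pair 2 (-0.27, SE 0.52). Activated_3 made up 7.61%, 3.73% and 3.97% against 4.28%, 4.65% and 6.38% (-0.06, SE 0.67). Homeostatic microglia made up 55.0%, 56.1% and 72.0% against 55.5%, 42.8% and 55.8% (0.59, SE 0.56, adjusted p = 0.707). Vehicle libraries held 68.5% to 86.9%, a range that FL-NfL library 3 entered and the other 5 NfL libraries did not.

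Proliferating microglia had the lowest estimate of the 5 states and the groups were apart. They made up 5.49%, 4.98% and 2.16% of microglia after FL-NfL and 5.69%, 8.08% and 7.15% after CC-NfL, with the narrowest gap, 0.20 points, in pair 1. The vehicle libraries held 2.66% to 5.98%. The log2 odds ratio was -0.86 (SE 0.54, interval -1.98 to 0.26, adjusted p = 0.627). It was -0.32 without FL-NfL library 3 (adjusted p = 0.958), and -1.27 without the 3 libraries numbered 1, where it passed (adjusted p = 0.0139). As a share of all cells the groups overlapped (-0.90, SE 0.63, adjusted p = 0.415), and the estimate was -0.20 without FL-NfL library 3. Of 5 microglial states 0 passed in limma and in the quasi-binomial model (0.0%), 0 had an unadjusted p under 0.05, and 1 had groups that did not overlap (20.0%). Matched by replicate number, 3 were lower after FL-NfL in 3 of 3 pairs (60%), a count that depends on this matching. These shares sum to a fixed total and are not independent.

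The homeostatic state is made up of 5 subclusters, with estimates from -0.11 to 0.62, and differences between them were not tested. Subcluster 1 made up 17.7%, 12.5% and 14.4% of microglia after FL-NfL and 14.4%, 7.13% and 9.93% after CC-NfL, higher in 3 of 3 pairs (0.62, SE 0.36, adjusted p = 0.483, and 0.30 without CC-NfL library 2). Subclusters 2 and 3 were next, with 0.30 (SE 0.31) and 0.36 (SE 0.35), and subclusters 4 and 5 were at 0.20 (SE 0.29) and -0.11 (SE 0.38). FL-NfL library 3 held 19.8% subcluster 3, against 6.88% and 8.71% in the other FL-NfL libraries, and without it the estimate was -0.04. The lowest estimates belonged to subclusters 9 (-0.86, SE 0.43, adjusted p = 0.483), 7 (-0.44) and 6 (-0.27), which are the whole Proliferating, Activated_2 and Activated_1 states. Of 9 subclusters 0 passed (0.0%) in limma or the quasi-binomial model, none had an unadjusted p under 0.05 in limma, and 3 were lower in 3 of 3 pairs (33.3%), the same cells as the 3 states.

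Other immune cells form a class without states in the table and were higher after FL-NfL in 3 of 3 pairs. They made up 1.54%, 1.27% and 1.47% of cells after FL-NfL and 0.301%, 1.01% and 1.27% after CC-NfL, and the groups were just apart. The log2 odds ratio was 0.96 (SE 0.54, interval -0.27 to 2.20, adjusted p = 0.445), with 0.32 without CC-NfL library 1 and 0.28 without the 3 libraries numbered 1. For every 100 macrophages there were 16.1, 23.1 and 21.0 other immune cells after FL-NfL and 15.5, 23.1 and 21.8 after CC-NfL. The log2 ratio of these numbers differed by -0.01 (SE 0.60, interval -1.25 to 1.24). It was close to equal within each pair, with differences of 0.02, 0.01 and -0.06.

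Of 16 classes 0 passed in limma or the quasi-binomial model (0.0%), 1 had an unadjusted p under 0.05 (6.25%), and 3 had groups that did not overlap (18.8%), each higher after FL-NfL. Beside other immune cells these were the class named BMEC and ependymal cells, which line the ventricles. BMEC made up 2.04%, 1.37% and 1.40% of cells after FL-NfL and 0.509%, 1.23% and 0.672% after CC-NfL (1.08, SE 0.40, unadjusted p = 0.0274, adjusted p = 0.378). Ependymal cells made up 0.924%, 0.857% and 0.891% against 0.278%, 0.465% and 0.700% (0.98, SE 0.46, adjusted p = 0.378). Without the 3 libraries numbered 1 these estimates were 0.62 for both classes. Vehicle libraries held 1.33% to 1.70% BMEC, so CC-NfL libraries lay below the vehicle range and FL-NfL libraries in or above it.

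Neurons were lower after FL-NfL in 3 of 3 pairs, at 5.14%, 4.70% and 8.22% against 8.86%, 7.55% and 12.1% (-0.73, SE 0.58, adjusted p = 0.787), and vehicle libraries ranged from 2.09% to 10.6%. Reelin neurons were lower in 3 of 3 pairs too (-1.34, SE 1.78), on 0.0237% to 1.28% of cells. Without FL-NfL library 1 the estimate turned to 0.33, and without the 3 libraries numbered 1 it was -0.44. In all, 4 classes were higher in 3 of 3 pairs after FL-NfL (25.0%) and 2 lower (12.5%). The log2 odds ratios of the other glia were 0.36 (SE 0.55) for astrocytes, 0.39 (SE 0.60) for oligodendrocytes and -0.09 (SE 0.32) for OPC. Without the 3 libraries numbered 1, astrocytes were at 0.69 and oligodendrocytes at 0.04. NPC were at -0.26 (SE 1.10) and choroid plexus cells at -0.38 (SE 0.90). Vascular and stromal classes were at 0.11 (VECA, SE 0.92), -0.14 (pericytes, SE 0.53), -0.05 (VSMC, SE 0.44) and -0.95 (VLMC, SE 1.29). FL-NfL library 1 held 0 VLMC of 4220 cells, a count that allows up to 0.0711%, and without that library the VLMC estimate was 0.79.

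**Figure D5:**
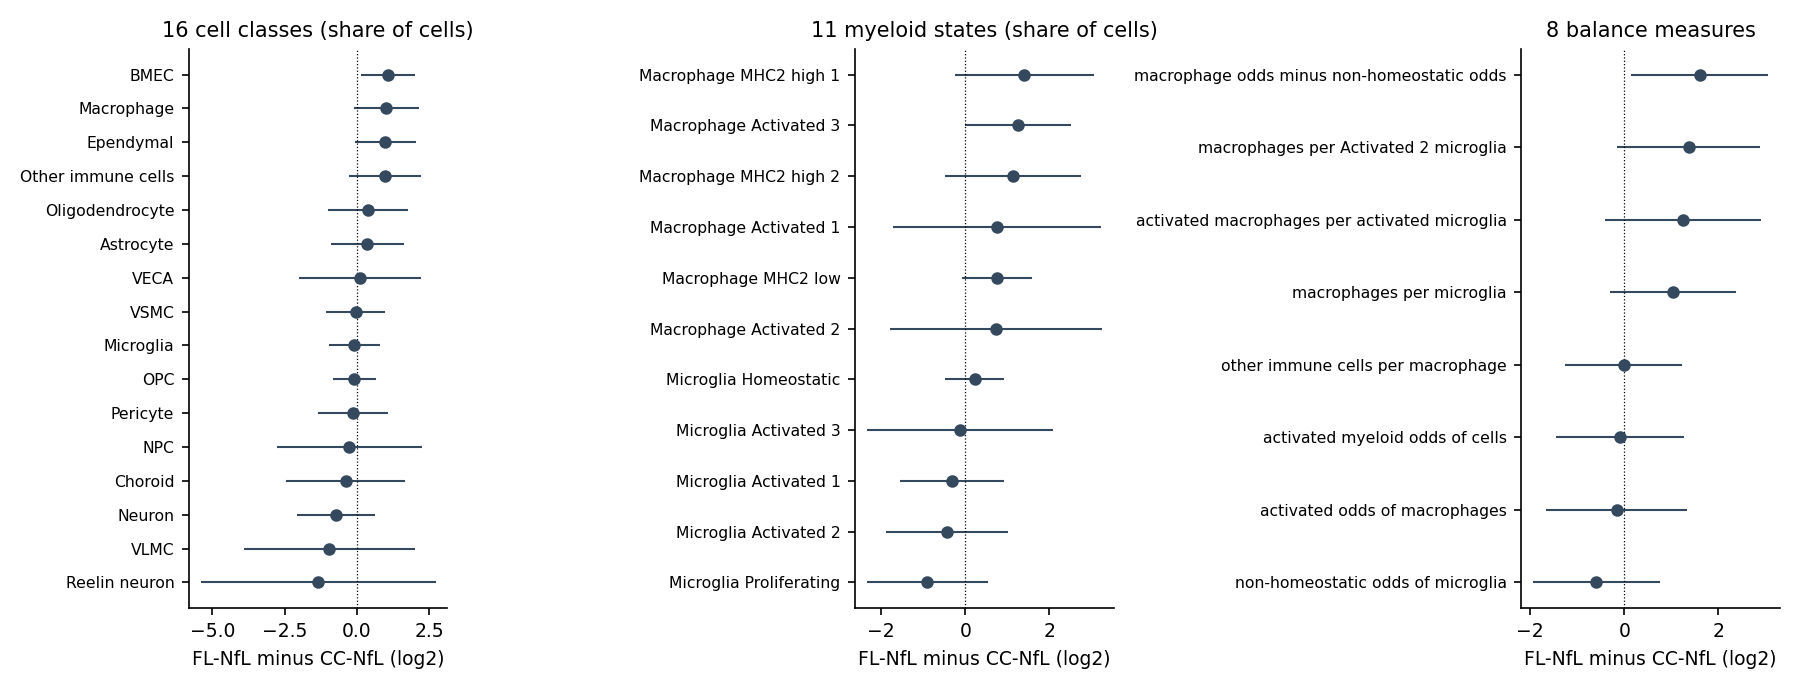
Points are FL-NfL minus CC-NfL differences on the log2 scale with 95% intervals from limma, for 16 classes, for 11 myeloid states as shares of cells and for 8 balance measures. The intervals of BMEC (1.08), Activated_3 macrophages (1.26) and the balance of macrophage and non-homeostatic odds (1.60) lie above 0 before adjustment for the number of tests.

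Below the level of classes, 0 of 31 clusters passed in limma or the quasi-binomial model (0.0%), and 1 had an unadjusted p under 0.05 (3.23%). FL-NfL was higher in 3 of 3 pairs for 4 clusters (12.9%), and for 3 (9.68%) the groups did not overlap, all above CC-NfL. The 4 are the BMEC, ependymal, other immune and macrophage clusters, which are whole classes. FL-NfL was lower in 3 of 3 pairs for 5 clusters (16.1%), which are 3 (neurons), 9 (microglia), 12 (choroid), 15 (OPC) and 19 (Reelin neurons). The highest estimates were those of clusters 8, 32 and 4, which are the whole BMEC, macrophage and ependymal classes. The lowest were cluster 12 of the choroid class (-1.69, SE 0.79, adjusted p = 0.585), cluster 19, which is all Reelin neurons (-1.34), and cluster 3 of the neurons (-1.16, SE 0.98). Cluster 12 held 0.00883% to 0.427% of cells after FL-NfL and 0.134% to 0.879% after CC-NfL, and its estimate was -0.71 without FL-NfL library 3.

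As shares of their own class, 0 of 22 clusters passed in limma or the quasi-binomial model and 0 had an unadjusted p under 0.05 (0.0%). The highest were cluster 10 of the NPC (1.03, SE 1.32), cluster 18 of the choroid class (0.82, SE 0.78) and cluster 11 of the astrocytes (0.64, SE 0.51). Cluster 18 was at 0.05 without the 3 libraries numbered 1. The lowest were cluster 12 of the choroid class (-1.41, SE 1.03), cluster 9, a cluster of microglia (-0.84, SE 0.48), and cluster 3 of the neurons (-0.73, SE 1.00). Cluster 9 was the 1 of 22 whose groups did not overlap (4.55%), with 3.66%, 3.73% and 1.42% of microglia after FL-NfL and 4.56%, 5.28% and 4.40% after CC-NfL, and its estimate was -0.31 without FL-NfL library 3.

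Against vehicle, the proteins are set side by side here, and since both contrasts use the same 4 vehicle libraries they are not independent. The balance stood at -3.21, -4.80, -4.62 and -5.44 in the vehicle libraries. It differed from vehicle by 1.54 (SE 0.66, adjusted p = 0.0603) after FL-NfL and by -0.07 (SE 0.66, adjusted p = 0.998) after CC-NfL. For macrophages per microglia the differences from vehicle were 2.40 (SE 0.61, adjusted p = 0.00200) and 1.37 (SE 0.61, adjusted p = 0.0562). Both proteins passed in limma for the activated odds of macrophages, at 3.52 (adjusted p = 0.000168) and 3.68 (adjusted p = 0.000196). Both also passed for activated macrophages per activated microglia, at 3.93 (adjusted p = 0.000168) and 2.68 (adjusted p = 0.00778). For the non-homeostatic odds they were 0.91 (SE 0.61, adjusted p = 0.176) and 1.49 (SE 0.61, adjusted p = 0.0562). Tested among the 5 microglial states, where the pooled spread differs, the same microglial shift passed against vehicle after CC-NfL. Homeostatic microglia were at -1.49 (SE 0.53, adjusted p = 0.0240) and Activated_2 at 1.63 (SE 0.52, adjusted p = 0.0209). After FL-NfL they were at -0.91 (adjusted p = 0.252) and 1.19 (adjusted p = 0.151). A call for macrophages per microglia after FL-NfL alone, or for these states after CC-NfL alone, is not a tested difference between the proteins, and the direct comparisons given above did not pass.

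The difference between the proteins was also compared between batches. For the balance it was 1.75 in b1 and 1.32 in b2, for the macrophage odds 1.38 and 0.29, and for the non-homeostatic odds -0.37 and -1.02, with 1 library of each protein in b2. Of 108 such differences between batches, 0 passed in limma and 0 had an unadjusted p under 0.05. A state is a region of the authors' clustering, so a change in its size and a change in the genes that define it cannot be told apart.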

How the data were processed

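The submitters' processing notes name Cell Ranger 6.0.1 and the mouse build GRCm38. The deposited table lists 108266 barcodes with names of clusters, classes and states for 68914, and the authors' t-SNE positions, which are scores without a unit. How cells were filtered, clustered and named, and how doublets were treated, is not stated there, and without gene values no doublet caller could be run. From this table cells were counted per library. Log2 odds with 0.5 added to each count were modelled on group and batch over all 10 libraries by limma 3.58.1 in R 4.3.3, leaving out items that averaged under 10 cells a library. P-values are two-sided, adjusted by Benjamini-Hochberg within each family, with 0.05 as threshold, and exact permutation used all 20 assignments of the NfL libraries or the 12 within batch. The scale of 8 balance measures is log2 of the ratios described. Intervals on single libraries are Clopper-Pearson (95%), a count of 0 allows 3 cells, and both cover counting error alone.

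Deviations of 16 classes from the group means correlated at 0.33, 0.54 and 0.20 between same-numbered FL-NfL and CC-NfL libraries, so these were read as pairs. With vehicle libraries of the same number, FL-NfL correlated at -0.13, -0.05 and 0.35 and CC-NfL at 0.16, 0.41 and 0.19. Batch was not removed from these deviations, and the class shares are those that the pairs then compare. Counts over pairs are therefore descriptive. The replicate numbers come from the sample titles, which do not say that a number marks a shared day or litter. On simulated data of 16 classes, 9.00% of log2 odds ratios of 1 were called, 54.0% of 2 and 74.0% of 3 (100 each), and 0.615% of 1300 unchanged ones. All classes, states and balance measures are named, and clusters past the threshold or with the 3 highest and 3 lowest estimates. The members, families and tests were chosen with earlier results of these data known. Alternatives were a quasi-binomial model, other scales, filters, denominators and libraries. The fits without the libraries numbered 1 or without granulocytes were added after seeing the data.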

Additional observations from a re-analysis of the deposited data

Results flagged for a closer look

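In the vehicle reference, 5 of 35 values tested had 1 library far from the other 3, where chance flags about 1 in 20. Vehicle library 4 held 1.05% macrophages against 1.54% to 1.60%, and 0.0114% Reelin neurons against 0.973% to 1.16%. Vehicle library 1 held 16.8% NPC against 1.82% to 2.98%. It also had the lowest log2 odds of non-homeostatic microglia, -2.72 against -1.37 to -1.12, and of activated myeloid cells, -5.19 against -3.50 to -3.16. These libraries enter the comparison of the proteins through the pooled spread alone: the balance difference of 1.60 had an SE of 0.70 with all libraries and 0.47 without vehicle library 1 (adjusted p = 0.0599).

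Barcodes without annotation were more frequent than in the vehicle libraries of the same batch in 3 of the 6 NfL libraries. They made up 71.3% in FL-NfL library 1 and 53.0% in CC-NfL library 1, against 48.7% to 50.3% in b1, and 20.7% in CC-NfL library 3, against 17.8% to 19.5% in b2. As a percentage of all barcodes macrophages were 2.74%, 3.18% and 5.82% after FL-NfL and 0.913%, 2.54% and 4.61% after CC-NfL.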

How the results depend on the processing

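Counts of calls matched the reported ones in 98 of 102 fits with another setting and in 79 of 80 without 1 library. The reported fits called none in any family, so a match means only that nothing passed. Of the named estimates, 769 and 595 kept direction and side of the threshold, 7 and 3 passed it, and 21 and 42 reversed. The replicate block changed no call and left the estimates as they were (macrophages 1.02, SE 0.53; balance 1.60, SE 0.63). With the 6 NfL libraries alone, 4 balance measures passed, the balance at 1.60, on an SE of 0.43 that was the same for these 4. Without 1 library in turn, 0 to 3 passed, and the balance ranged from 1.26 to 2.15. The 3 passed without CC-NfL library 3, a fit that has no CC-NfL library in b2. The quasi-binomial model called 1 macrophage state. Without the 3 libraries numbered 1, 1 microglial state and 1 subcluster passed. Causes were not tested.

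Directions turned as follows. In the quasi-binomial model VLMC were at 0.29 and VSMC at 0.50, and VSMC on the arcsine scale at 0.00159. Without the libraries numbered 1, VLMC were at 0.82, OPC at 0.10, VSMC at 0.24, MHC2_low of macrophages at 0.27, and Activated_1 and Activated_2 macrophages of cells at -0.19 and -0.086. In b1 alone, choroid cells were at 0.18, microglia at 0.029, Activated_3 of microglia and of cells at 0.28 each, MHC2_high_2 of macrophages at -0.015, activated macrophages at 0.13, activated myeloid cells at 0.12 and other immune cells per macrophage at 0.014. With all barcodes VECA were at -0.11 and homeostatic microglia of cells at -0.023, and with centred log ratios these microglia were at -0.011 and Activated_3 of microglia at 0.19.

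Leaving out 1 library gave ranges that cross 0 for Reelin neurons, also cluster 19 (-2.30 to 0.33), VLMC (-2.29 to 0.79), choroid (-1.06 to 0.11), NPC (-1.24 to 0.57), pericytes (-0.59 to 0.28), OPC (-0.23 to 0.053), microglia (-0.28 to 0.15), VSMC (-0.36 to 0.33) and VECA (-0.48 to 0.74). So did clusters 3 (-1.52 to 0.26) and 10 (-0.44 to 1.87) within class. Among microglia they were Activated_1, also subcluster 6 (-0.49 to 0.026), Activated_3 (-0.52 to 0.40), subcluster 2 (-0.011 to 0.52) and subcluster 3 (-0.043 to 0.62). Among macrophages they were Activated_1 (-0.63 to 0.25), Activated_2 (-0.63 to 0.24), MHC2_low (-0.70 to 0.051), MHC2_high_2 (-0.093 to 0.62) and MHC2_high_1 (-0.16 to 1.35). Of all cells they were microglial Activated_1 (-0.66 to 0.13), Activated_2 (-0.70 to 0.023) and Activated_3 (-0.57 to 0.49). The balance measures that crossed 0 were activated macrophages (-0.50 to 0.52), activated myeloid cells (-0.28 to 0.29) and other immune cells per macrophage (-0.18 to 0.14).

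With 3 libraries per protein, 2 in b1 and 1 in b2, the permutation test cannot reach 0.05. Rare classes rest on few cells, and the 8 balance measures share cells, so their pooled spread does not come from independent values.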
